A study of Mus musculus with 4 samples.

Results

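Krüppel-like factors (KLFs) are transcription factors that bind GC-rich and CACCC-containing DNA with zinc fingers at their C-terminal end and activate or repress genes through the cofactors they recruit. In the kidney glomerulus, *Klf2* and *Klf4* are known as flow-responsive genes of endothelial cells, *Klf4*, *Klf6* and *Klf15* as genes that protect the differentiated state of podocytes, and *Klf9* and *Klf15* as genes that glucocorticoids induce. Podocytes are the epithelial cells whose foot processes cover the glomerular capillaries. The values of 10 KLF genes, *Klf2*, *Klf3*, *Klf4*, *Klf5*, *Klf6*, *Klf7*, *Klf9*, *Klf10*, *Klf13* and *Klf15*, were examined among the 22180 genes measured in glomeruli of *Gak*-KO and control mice. A gene was taken by its probe set that is annotated with this symbol alone, and, for the single gene with several such probe sets (*Klf7*), by the brighter one. All 10 genes had a probe set of their own.

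GAK (cyclin G-associated kinase) is a protein that helps to uncoat clathrin-coated vesicles. *Gak*-KO mice carried Gak fl/fl alleles together with Pod-Cre, a Cre recombinase driven by the podocin promoter and therefore restricted to podocytes, and a Rosa-Dtr fl allele, which encodes a Cre-dependent diphtheria toxin receptor. Control mice were Cre-negative littermates with Gak fl/fl alleles, so the floxed *Gak* alleles were shared by both groups. Glomeruli were taken from the cortex of C57BL/6 mice at 3 weeks of age by bead perfusion and a density gradient. Each array was hybridized with RNA pooled over 3 mice, and there were 2 *Gak*-KO arrays and 2 control arrays, numbered 1 and 2 in each group. The arrays numbered 1 carry the label male and those numbered 2 the label female. The study's gene table gives its values by batch, and the numbers were taken to follow these batches. Sex label, number and batch therefore cannot be told apart. Arrays of the same number were compared, *Gak*-KO 1 minus control 1 being pair 1 and *Gak*-KO 2 minus control 2 pair 2.

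The values are log2 signals, on which a difference of 1 is a factor of 2, and the table gives no detection calls. The median signal was 4.32 and 4.14 on the *Gak*-KO arrays and 4.28 and 4.13 on the control arrays. *Gak* itself was at 8.64 and 8.39 in *Gak*-KO glomeruli and at 8.25 and 8.35 in control glomeruli. Whole glomeruli contain other cells with intact *Gak*, and the position of the probes relative to the deleted part is not known here, so these values are no check of the genotype. *Xist*, which is expressed from the inactive X chromosome of female cells, was at 9.61 and 9.21 on *Gak*-KO arrays 1 and 2 and at 9.69 and 8.55 on control arrays 1 and 2. *Uty*, a Y-linked gene, was at 5.59 and 5.57 on *Gak*-KO arrays 1 and 2 and at 4.65 and 6.00 on control arrays 1 and 2. The arrays labelled male had the higher *Xist* signal in both groups, and the lower *Uty* signal in control, with nearly equal *Uty* in *Gak*-KO, which goes against the sex labels. Both genes gave a signal on all 4 arrays, and whether a pool held mice of both sexes was not tested. The pairs are called by their numbers below. The podocyte marker *Wt1* was at 7.37 and 8.73 in *Gak*-KO and at 7.38 and 8.57 in control glomeruli, and *Podxl* (podocalyxin) at 9.99 and 11.13 in *Gak*-KO and 10.13 and 10.84 in control glomeruli. The proximal tubule marker *Slc34a1*, a phosphate transporter, was at 12.98 and 12.11 in *Gak*-KO and at 12.98 and 12.40 in control glomeruli, so RNA of tubules was present in all 4 preparations. In such bulk samples fewer cells of a type and less RNA per cell cannot be told apart.

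The DNA just upstream of these genes carries the kind of sequence that KLF and SP proteins bind, and the stretches of the genes on which the results turn are shown for that reason. RefSeq promoters (GRCm38.p6) were matched for 8 of the 10 genes, all but *Klf5* and *Klf10*. Printed are the 250 bases before the annotated start, read 5′ to 3′ on the gene's strand. Capitals mark GGGCGG, the GC box, CACCC, the core of CACCC elements, and a MEF2-like pattern (CTA, any 4 bases, TAG). Either strand was searched, so that CCGCCC and GGGTG are marked as well, and neighbouring matches may share bases. *Klf6* is on the plus strand at chr13:5861239-5861488, *Klf4* on the minus strand at chr4:55532476-55532725, *Klf2* on the plus strand at chr8:72318812-72319061, and *Klf15* on the plus strand at chr6:90462326-90462575. The windows of *Klf6*, *Klf4* and *Klf2* end next to the first base of the annotated gene, whereas that of *Klf15* lies within the annotated gene span (chr6:90461043-90491803), before the start used in the table.
Klf6: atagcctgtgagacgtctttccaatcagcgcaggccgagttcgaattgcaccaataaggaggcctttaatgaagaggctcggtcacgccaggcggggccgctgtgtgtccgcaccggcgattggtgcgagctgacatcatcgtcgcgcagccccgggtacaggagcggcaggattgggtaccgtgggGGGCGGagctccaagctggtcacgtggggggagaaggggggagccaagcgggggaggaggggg
Klf4: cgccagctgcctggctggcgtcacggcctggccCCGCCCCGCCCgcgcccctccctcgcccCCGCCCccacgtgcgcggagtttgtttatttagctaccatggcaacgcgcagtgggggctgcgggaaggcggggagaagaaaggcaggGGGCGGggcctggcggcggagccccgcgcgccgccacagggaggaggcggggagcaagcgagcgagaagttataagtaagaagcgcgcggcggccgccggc
Klf2: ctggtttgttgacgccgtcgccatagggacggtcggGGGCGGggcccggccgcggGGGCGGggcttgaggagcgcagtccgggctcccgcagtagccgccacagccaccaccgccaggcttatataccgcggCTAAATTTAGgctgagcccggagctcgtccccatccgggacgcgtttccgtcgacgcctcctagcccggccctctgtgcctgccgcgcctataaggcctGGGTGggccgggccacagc
Klf15: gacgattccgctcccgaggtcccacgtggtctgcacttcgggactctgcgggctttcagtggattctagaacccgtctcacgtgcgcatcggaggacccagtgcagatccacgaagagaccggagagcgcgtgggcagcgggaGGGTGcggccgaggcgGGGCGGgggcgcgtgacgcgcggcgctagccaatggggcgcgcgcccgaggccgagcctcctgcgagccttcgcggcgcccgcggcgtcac

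At least 1 GC box was found in 7 of the 8 promoters, against 32.7% of 32851 mouse promoter windows of the same length. *Klf9* was the exception. *Klf6* and *Klf15* each had 1 GC box, *Klf2* had 2 and *Klf4* had 4. The CACCC core was found in 6 of 8, against 52.0% of all windows, and was absent from the windows of *Klf4* and *Klf6*. The MEF2-like pattern was found once, in *Klf2*, as CTAAATTTAG, and in 3.2% of all windows. The letters TGACGTCA (a cAMP response element, in 1.55% of all windows) were in none of the 8, nor was the CArG box searched for serum response elements (in 0.0609%). The windows were rich in G and C, with 64.8% for *Klf6*, 74.0% for *Klf4*, 71.2% for *Klf2* and 72.0% for *Klf15*, against a median of 52.4% over all windows. A match of these letters describes the sequence and was not set against binding.

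None of the 10 KLF genes had a *Z*-ratio past the limit in both pairs in 1 direction, the criterion used here to call a gene. The methods name the *Z*-ratio and its limit, the usual 95% limit of a normal distribution, and do not say that both pairs must pass it. That demand was taken from the gene table of the study, which gives a value for each batch, and without it 5 of the 10 are past the limit in a single pair. The *Z*-ratio is the difference between the *Z*-transformed signals of a gene on 2 arrays, in units of the SD that this difference has across all genes. Of all genes, 0.509% were called higher and 0.234% lower by this criterion. The 10 genes had *Z*-ratios beyond the limit in 1 pair only or in none. *Klf4* and *Klf6* passed it upward in pair 1, *Klf3* and *Klf7* upward in pair 2, and *Klf15* downward in pair 2. These 5 of 10 stand beside 10.2% of all genes beyond the limit in at least 1 pair. No gene of the table reached an adjusted p under 0.05 in limma, fitted with the pairs as blocks (0.0%). The adjusted p was 1.0 for *Klf5* and 0.833, the smallest of any gene, for the other members. The unadjusted limma p was under 0.05 for 3 of 10 (*Klf4*, *Klf6* and *Klf15*), against 5.43% of all genes. With 2 arrays against 2 and no pairing, an exact permutation test of a single gene cannot give a two-sided p below 0.333. Pairing allows fewer arrangements still.

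**Figure D1:**
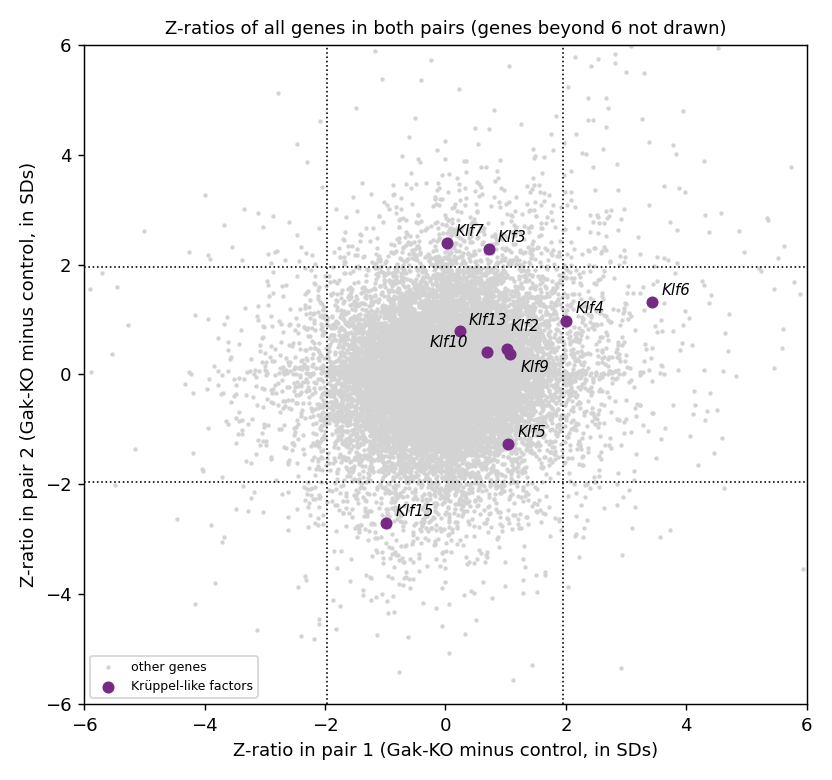
*Z*-ratio of every gene in pair 1 (horizontal axis) and pair 2 (vertical axis), *Gak*-KO minus control, in SDs of the differences over all genes. Dotted lines mark the limit in each pair; *Klf6* and *Klf4* lie beyond it in pair 1 only, and *Klf3*, *Klf7* and *Klf15* in pair 2 only.

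In direction, 8 of the 10 genes had a higher signal in *Gak*-KO than in control glomeruli in both pairs, against 22.3% of all genes. The share was 25.9% of genes after the dimmest 30% by mean signal were left out, a filter that all 10 KLF genes passed. *Klf15* alone was lower in both pairs, against 24.3% of all genes, and *Klf5* was higher in pair 1 and lower in pair 2. Values were exactly equal within a pair for 3026 genes, which count in neither direction, and for 0 of the 10. The median of the 10 mean differences was 0.23 on the log2 scale, and it was 0.27 in pair 1 and 0.16 in pair 2. The median over all genes was -0.01, with 0.0 in each pair. Both *Gak*-KO arrays were above both control arrays for 2 of 10 (*Klf2* and *Klf6*), against 8.8% of all genes. Both were below for 0 of 10, against 8.22% of all genes.

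**Figure D2:**
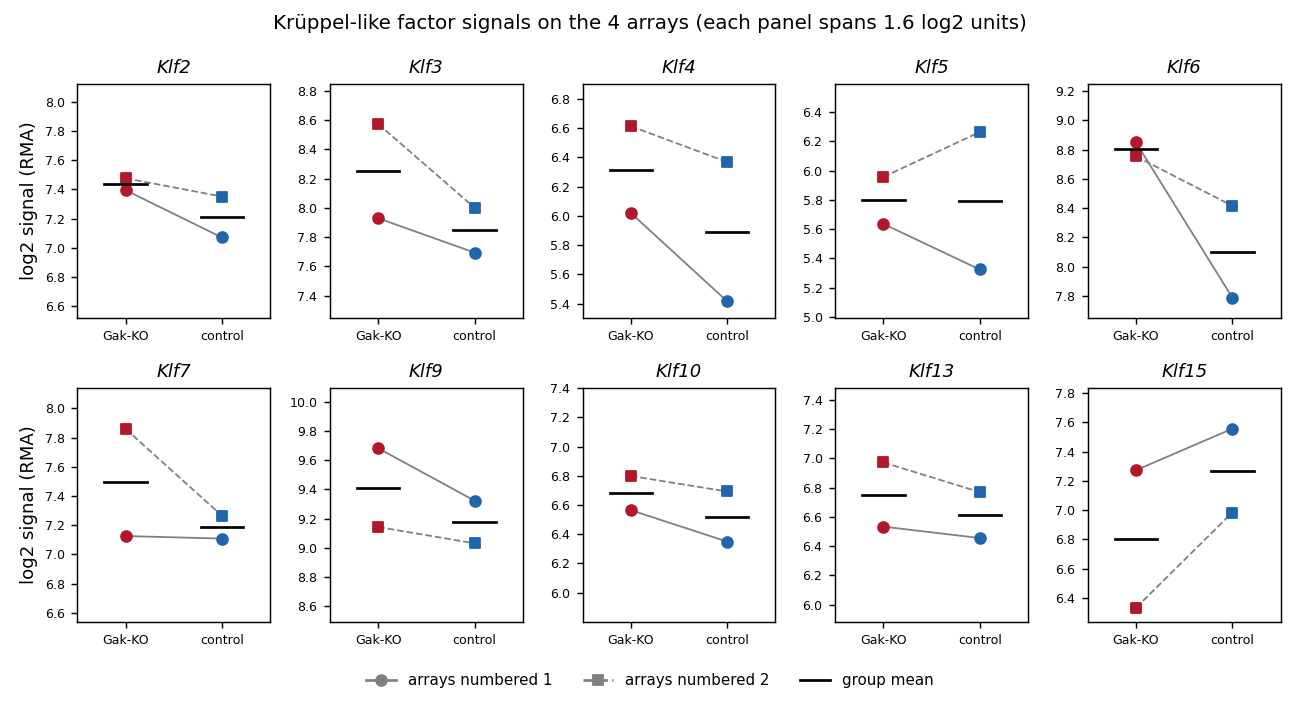
Log2 signal (vertical axis) of the 10 KLF genes on the 2 *Gak*-KO and 2 control arrays (points, joined between arrays of the same number), with group means as black bars. Only for *Klf2* and *Klf6* were both *Gak*-KO points above both control points, and only *Klf15* was lower in *Gak*-KO in both pairs.

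*Klf6* had the largest mean difference of the 10. KLF6 is an early injury-response factor that has been described in mice as a regulator of mitochondrial function in podocytes. Its signal was 8.85 and 8.75 on the *Gak*-KO arrays, against 7.79 and 8.42 on the control arrays. The groups did not overlap, and the *Gak*-KO arrays were close to each other while control 1 lay below control 2. The difference was 1.06 in pair 1 and 0.34 in pair 2, which are 2.09-fold and 1.26-fold. Its mean of 0.70 ± 0.22 (SE, n = 2 pairs; 95% interval 0.02 to 1.38) was above that of 99.4% of all genes. Its *Z*-ratios were 3.44 and 1.31, and its unadjusted limma p was 0.046. Here and below, SEs and intervals are the moderated ones of limma. They draw on the variance of all genes and do not rest on the 2 pairs of a gene alone. The mean difference was 0.34 without pair 1 and 0.39 without control 1, and 1.06 without pair 2 and 1.01 without control 2.

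*Klf15* was the member with lower values in *Gak*-KO glomeruli. KLF15 is a podocyte differentiation factor that responds to glucocorticoids, and in liver and muscle it controls amino acid catabolism. Its signal was 7.27 and 6.33 on the *Gak*-KO arrays, against 7.56 and 6.98 on the control arrays. *Gak*-KO 2 was the lowest array, and *Gak*-KO 1 lay between the 2 control arrays, so the groups overlapped. The difference was -0.28 in pair 1 and -0.65 in pair 2. Its mean was -0.47 ± 0.14 (SE, n = 2 pairs; 95% interval -0.89 to -0.04), or 0.72-fold, with an unadjusted limma p of 0.040, and 1.55% of all genes had a mean as low or lower. Without *Gak*-KO 2, the unpaired difference was 0.0028, and without *Gak*-KO 1 it was -0.94. Without control 1 it was -0.18 and without control 2 -0.75.

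*Klf4* encodes a factor of podocytes, endothelium and dedifferentiating smooth muscle. It was at 6.02 and 6.61 on the *Gak*-KO arrays and at 5.42 and 6.37 on the control arrays. In both groups array 2 was the higher, and *Gak*-KO 1 lay below control 2. The differences were 0.60 and 0.24, with a mean of 0.42 ± 0.14 (SE, n = 2 pairs; 95% interval 0.00 to 0.85) and an unadjusted limma p of 0.049. Its *Z*-ratio of 2.00 in pair 1 stood just beyond the limit and that of pair 2, 0.98, within it. The unpaired difference was -0.052 without control 1 and 0.13 without *Gak*-KO 2.

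*Klf2*, the endothelial factor induced by laminar flow, was at 7.39 and 7.48 on the *Gak*-KO arrays and at 7.07 and 7.35 on the control arrays. Both *Gak*-KO arrays were above both control arrays, by a small margin to control 2. The differences were 0.32 and 0.12, and their mean was 0.22 ± 0.11 (SE, n = 2 pairs; 95% interval -0.11 to 0.56). Its *Z*-ratios, 1.03 and 0.47, were within the limit in both pairs. *Klf2* and *Klf4* are both targets of the MEK5, ERK5 and MEF2 pathway in endothelium.

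*Klf3* and *Klf7* had their larger difference in pair 2. KLF3 is a repressor that recruits the corepressor CtBP. *Klf3* was at 7.929 and 8.574 on the *Gak*-KO arrays, against 7.694 and 8.001 on the control arrays, with *Gak*-KO 1 below control 2. Its mean difference was 0.40 ± 0.13 (SE, n = 2 pairs; 95% interval -0.01 to 0.81), and its *Z*-ratios were 0.72 and 2.28. KLF7 is best known from developing neurons. *Klf7* was at 7.13 and 7.86 on the *Gak*-KO arrays, against 7.11 and 7.27 on the control arrays, so that *Gak*-KO 2 stood apart from the other 3. Its differences were 0.02 in pair 1 and 0.59 in pair 2, with a mean of 0.31 ± 0.19 (SE, n = 2 pairs; 95% interval -0.26 to 0.87), and without *Gak*-KO 2 the difference was -0.061. A second *Klf7* probe set, dimmer and not used, was at 3.16 and 2.90 on the *Gak*-KO arrays and at 3.11 and 2.70 on the control arrays.

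*Klf9*, *Klf10* and *Klf13* differed by less between the groups than their own 2 control arrays differed from each other. KLF9 is induced by glucocorticoids and thyroid hormone, KLF10 by TGF-β, and KLF13 is a factor of lymphocytes and heart. *Klf9* was at 9.68 and 9.14 on the *Gak*-KO arrays and at 9.32 and 9.03 on the control arrays, the mean difference being 0.24 ± 0.12 (SE, n = 2 pairs; 95% interval -0.12 to 0.59). *Klf10* was at 6.56 and 6.80 on the *Gak*-KO arrays and at 6.35 and 6.69 on the control arrays, with a mean difference of 0.16 ± 0.10 (95% interval -0.15 to 0.47). *Klf13* was at 6.53 and 6.97 on the *Gak*-KO arrays and at 6.46 and 6.77 on the control arrays, with a mean difference of 0.14 ± 0.10 (95% interval -0.17 to 0.45). For all 3 the groups overlapped and the *Z*-ratios stayed within the limit in both pairs.

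*Klf5*, which promotes proliferation of epithelium and smooth muscle and is strong in the collecting duct, was the member whose pairs disagreed. It was at 5.64 and 5.96 on the *Gak*-KO arrays, against 5.32 and 6.26 on the control arrays. The *Gak*-KO values lay between the control values. The difference was 0.31 in pair 1 and -0.31 in pair 2, and the mean was 0.00 ± 0.20 (SE, n = 2 pairs; 95% interval -0.60 to 0.60). The sign of this mean turned to -0.039 after quantile normalization and to -0.017 after centring on array medians, which left the signs of the other 9 genes as they were.

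For 9 of the 10 genes, all but *Klf6*, the arrays of at least 1 group differed from each other by more than the mean *Gak*-KO minus control difference, and for 6 this held in both groups. The signal was higher on array 2 for 7 of 10 in *Gak*-KO glomeruli and for 8 of 10 in control glomeruli. Array 2 minus array 1 was 0.59 for *Klf4* in *Gak*-KO and 0.95 in control, and for *Klf5* it was 0.32 in *Gak*-KO and 0.94 in control. *Klf15* ran the other way, with -0.94 in *Gak*-KO and -0.57 in control, and so did *Klf9*, with -0.54 in *Gak*-KO and -0.29 in control. *Klf6* differed by -0.095 between the *Gak*-KO arrays and by 0.63 between the control arrays.

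Markers of cell types moved with the array number as well. The median difference of array 2 minus array 1 over 8 of 10 podocyte markers measured was 1.25 in *Gak*-KO and 0.90 in control. Over 10 proximal tubule markers it was -1.27 in *Gak*-KO and -0.76 in control. *Klf9* and *Klf15* had the sign of the tubule list in both groups. The other 8 KLF genes had the sign of the podocyte list in control glomeruli, and so did 7 of them in *Gak*-KO glomeruli, all but *Klf6*. Array number, sex label and batch cannot be separated in these differences, and their part in the KLF values was not tested.

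**Figure D3:**
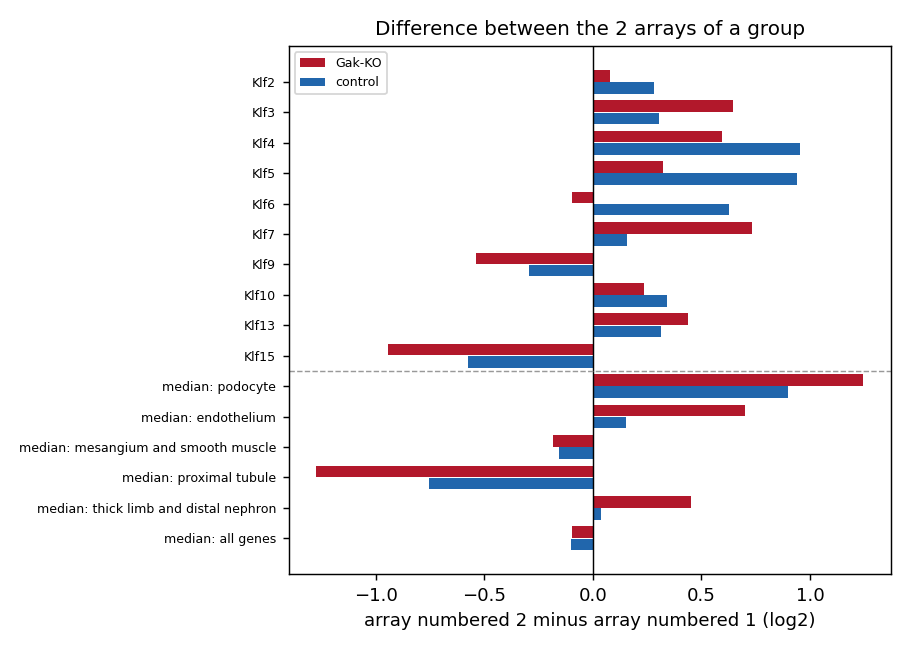
Difference of array 2 minus array 1 (horizontal axis, log2) within *Gak*-KO (red) and within control (blue) for the 10 KLF genes, and the median of the same difference over marker lists and all genes. *Klf9* and *Klf15* were lower on array 2 in both groups, as was the proximal tubule list, while the podocyte list was higher by 1.25 in *Gak*-KO and 0.90 in control.

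Between *Gak*-KO and control glomeruli, the summed linear signal of the podocyte markers was 3156 and 6383 in *Gak*-KO, against 3153 and 5267 in control, with a median log2 difference of -0.0018 and 0 of 8 called. Endothelial markers summed to 7281 and 11538 in *Gak*-KO, against 9024 and 9702 in control, with 0 of 10 called. In pair 1 the podocyte sum was nearly the same in both groups and the endothelial sum lower in *Gak*-KO. In pair 2 both sums were higher in *Gak*-KO. The median podocyte difference was -0.21 in pair 1 and 0.18 in pair 2, and the median endothelial difference was -0.22 and 0.24. A linear sum weights bright markers most, so the equal podocyte sums do not show that podocyte RNA was matched in pair 1. Mesangial and smooth muscle markers summed to 1990 and 1910 in *Gak*-KO, against 1441 and 1672 in control, with a median difference of 0.23 and 0 of 7 called. Proximal tubule markers summed to 26092 and 11542 in *Gak*-KO, against 26589 and 16402 in control. Of these 10, *Kap* (kidney androgen-regulated protein) was called lower at -1.78 ± 0.32 (SE, n = 2 pairs, as for the values that follow), and 5 were lower in both pairs. In the list of thick limb and distal nephron, *Slc12a1*, the sodium-potassium-chloride cotransporter, was called lower at -0.62 ± 0.10, the 1 call among 7. Of that list, 4 were lower and 2 higher in both pairs. In the macrophage and neutrophil list, *Cd68*, a lysosomal protein of macrophages, was called higher at 0.71 ± 0.11, the 1 call among 9. Of these 9, 4 were higher and 2 lower in both pairs, and 3 had opposite signs. Their median difference was -0.04 in pair 1 and 0.32 in pair 2. The macrophage and neutrophil list summed to 289 and 412 in *Gak*-KO and to 283 and 277 in control. The 6 markers of parietal epithelium had a median difference of 0.14 and 0 calls. Genes called by the *Z*-ratio here and in the lists that follow had an adjusted limma p of 0.833. The *Z*-ratios were computed here and differ from the values in the study's gene table. That table also lists *Kap* and *Slc12a1* as lower, but not *Cd68*. It further lists the markers *Umod*, *Egf* and *Slc5a2* as lower and *Des* as higher in both batches, and none of these was called here.

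Of the remaining KLF and SP factors, 15 of 16 had a probe set of their own and 0 were called. In both pairs 5 were higher and 3 lower, with a median difference of 0.06. *Klf11*, a TGF-β-inducible relative of *Klf10*, was at 7.40 and 6.88 on the *Gak*-KO arrays and at 7.08 and 6.66 on the control arrays. The erythroid factor *Klf1* was at 3.63 and 3.29 on the *Gak*-KO arrays and at 3.71 and 3.72 on the control arrays. *Sp6* had a mean difference of 0.32 ± 0.12 and *Sp8* of -0.28 ± 0.18, where the values of pair 2 were equal. Over 14 cofactors and ubiquitin ligases of KLFs, 0 were called and the median difference was 0.05. The histone acetyltransferase genes *Ep300* and *Crebbp* had differences of 0.24 ± 0.12 and 0.18 ± 0.10, the corepressor gene *Sin3a* 0.19 ± 0.10 and the ubiquitin ligase gene *Fbxo32* 0.22 ± 0.10.

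Of 7 genes of the MEK5, ERK5 and MEF2 pathway, which lies upstream of *Klf2* and *Klf4*, 5 had higher and 2 lower values in both pairs and 0 were called, with a median difference of 0.21. *Piezo1*, a mechanically gated channel of endothelium, was at 8.96 and 8.97 on the *Gak*-KO arrays and at 8.21 and 8.68 on the control arrays, so that the groups did not overlap. *Mapk7*, which encodes ERK5, had a difference of 0.21 ± 0.10, *Mef2a* of 0.25 ± 0.12 and *Mef2d* of 0.32 ± 0.10. Among 10 endothelial genes linked to KLF2 and KLF4, 6 had higher values in both pairs, as did 22.3% of all genes. In this list 1 was lower in both pairs, 3 had opposite signs and 1 was called. The lower one was *Thbd*, with -0.17 in pair 1 and -0.03 in pair 2, named after its values were seen. The list was not split by whether KLF2 and KLF4 induce or repress a gene. *Edn1*, which encodes the vasoconstrictor endothelin 1 and which KLF2 is known to repress, rose by 1.42 ± 0.31, with 7.23 and 7.14 on the *Gak*-KO arrays and 5.28 and 6.26 on the control arrays. *Vcam1* and *Icam1*, adhesion molecules of activated endothelium, had differences of 1.39 ± 0.63 and 0.86 ± 0.26 and were beyond the limit in pair 1 only. *F3* (tissue factor), at 0.37 ± 0.18, was beyond it in pair 2 only, and *Nppc* (C-type natriuretic peptide) had a difference of 0.21 ± 0.15.

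Glucocorticoids are known to induce *Klf9* and *Klf15*. The list of the glucocorticoid receptor and other target genes had 6 of 9 genes higher and 2 lower in both pairs and 0 called, with a median difference of 0.24. The 2 with lower values were both receptor genes, named after their values were seen. *Nr3c1*, the glucocorticoid receptor, was at 7.84 and 7.82 on the *Gak*-KO arrays and at 8.14 and 8.10 on the control arrays, without overlap, and *Nr3c2*, the mineralocorticoid receptor, differed by -0.010 in pair 1 and -0.0027 in pair 2. *Fkbp5*, a cochaperone of the receptor, was at 7.16 and 6.69 on the *Gak*-KO arrays and at 6.64 and 6.26 on the control arrays, and *Sgk1*, a kinase that acts on sodium transport, had a difference of 0.43 ± 0.10. *Zbtb16* differed by 1.71 in pair 1 and 0.12 in pair 2, and *Mt2* (metallothionein) by 1.10 and 0.21. *Klf9* had the sign of most of this list in both pairs and *Klf15* the opposite one.

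All 7 metabolic genes linked to KLF15 had lower values in *Gak*-KO in both pairs, where 24.3% of all genes did, and 0 were called. Their median difference was -0.28, with -0.21 in pair 1 and -0.26 in pair 2. *Bcat2*, the mitochondrial branched-chain aminotransferase, was at 6.66 and 7.20 on the *Gak*-KO arrays and at 7.57 and 7.45 on the control arrays, without overlap. *Bckdha* and *Bckdhb*, subunits of the branched-chain keto acid dehydrogenase, had differences of -0.36 ± 0.10 and -0.30 ± 0.14, and *Pck1*, the gluconeogenic enzyme, of -0.28 ± 0.16. *Pck1* is a tubule gene, with 12.08 and 10.48 on the *Gak*-KO arrays and 12.13 and 10.98 on the control arrays. The proximal tubule markers had a median difference of -0.25 (0.00 in pair 1 and -0.55 in pair 2), and their part in the values of this list and of *Klf15* was not tested.

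Of 7 genes linked to KLF6 and KLF10 in TGF-β signaling and mitochondria, 4 were higher and 1 lower in both pairs and 0 were called. *Tgfb1* itself differed by 0.05 in pair 1 and 0.76 in pair 2, *Eng* (endoglin) had a mean difference of 0.26 ± 0.10, and the inhibitory *Smad7* of -0.12 ± 0.10. Of 10 smooth muscle and cell cycle genes linked to KLF4 and KLF5, 6 had higher values in both pairs, 4 had opposite signs and 2 were called. *Tagln* (transgelin, of contractile smooth muscle) rose by 0.95 ± 0.21, with 7.20 and 7.88 on the *Gak*-KO arrays and 6.57 and 6.59 on the control arrays. *Cdkn1a*, the cell cycle inhibitor p21 and a known KLF4 target, rose by 0.77 ± 0.10, with 8.97 and 8.48 on the *Gak*-KO arrays and 8.14 and 7.77 on the control arrays. *Acta2* (smooth muscle actin) had a difference of 0.55 ± 0.17, and was beyond the limit in pair 1 only. *Cnn1* (calponin), also of contractile smooth muscle, differed by 1.10 in pair 1 and -0.24 in pair 2.

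Several KLF genes belong to the early response to stimuli and to tissue handling, so 15 immediate early genes were set beside them. In both pairs 5 were higher and 3 lower, and the median difference was 0.04. *Nr4a1*, an orphan nuclear receptor, rose by 0.85 ± 0.12, the 1 call of the list. *Fos* and *Fosb* had lower values in *Gak*-KO, with -0.50 ± 0.11 and -0.45 ± 0.12, while *Myc* and *Atf3* had higher ones, with 0.50 ± 0.18 and 0.44 ± 0.18. The *Klf6* values stood beside immediate early genes of both directions.

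**Figure D4:**
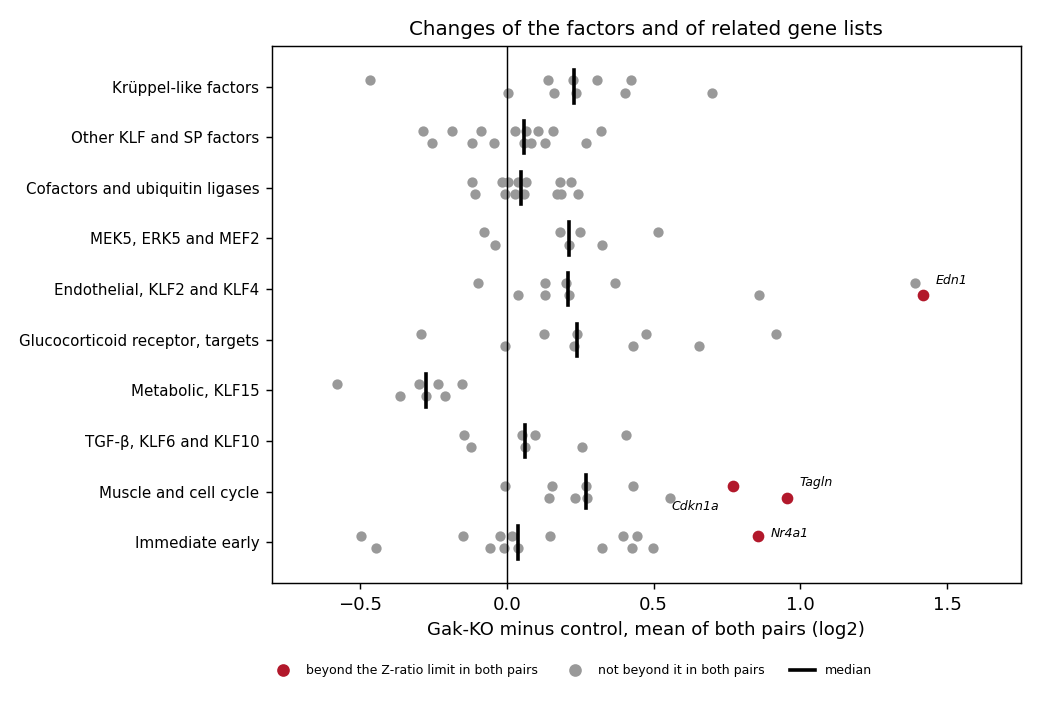
Mean *Gak*-KO minus control difference (horizontal axis, log2) of each gene in the KLF set and in 9 related lists (rows), with the median as a black bar and genes beyond the *Z*-ratio limit in both pairs in red. The KLF median was 0.23; all 7 metabolic genes linked to KLF15 lay below 0, and the red points are *Edn1*, *Cdkn1a*, *Tagln* and *Nr4a1*.

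The genes whose profile over the 4 arrays was nearest to that of *Klf6*, after each gene was centred on its own mean, were *Rpp25*, *H2-T23* and *Mical2*. Their root mean square distance was 0.0580, 0.0585 and 0.0589 on the log2 scale. *Rpp25*, a subunit of ribonuclease P, was at 5.06 and 5.07 on the *Gak*-KO arrays and at 4.16 and 4.71 on the control arrays. *H2-T23*, a nonclassical MHC class I gene, was at 6.63 and 6.39 on the *Gak*-KO arrays and at 5.54 and 6.19 on the control arrays. *Mical2*, an actin-oxidizing enzyme, was at 5.93 and 5.90 on the *Gak*-KO arrays and at 5.02 and 5.51 on the control arrays. In all 3, as in *Klf6*, control 1 was the lowest array.

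The signs of *Klf2*, *Klf3* and *Klf6* were the same in all 15 alternative analyses. When 1 *Z*-ratio of the group means replaced the demand on both pairs, *Klf4* and *Klf6* were called higher and *Klf15* lower, and 1199 genes were called in all, against 165 past the limit in both pairs.

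**Figure D5:**
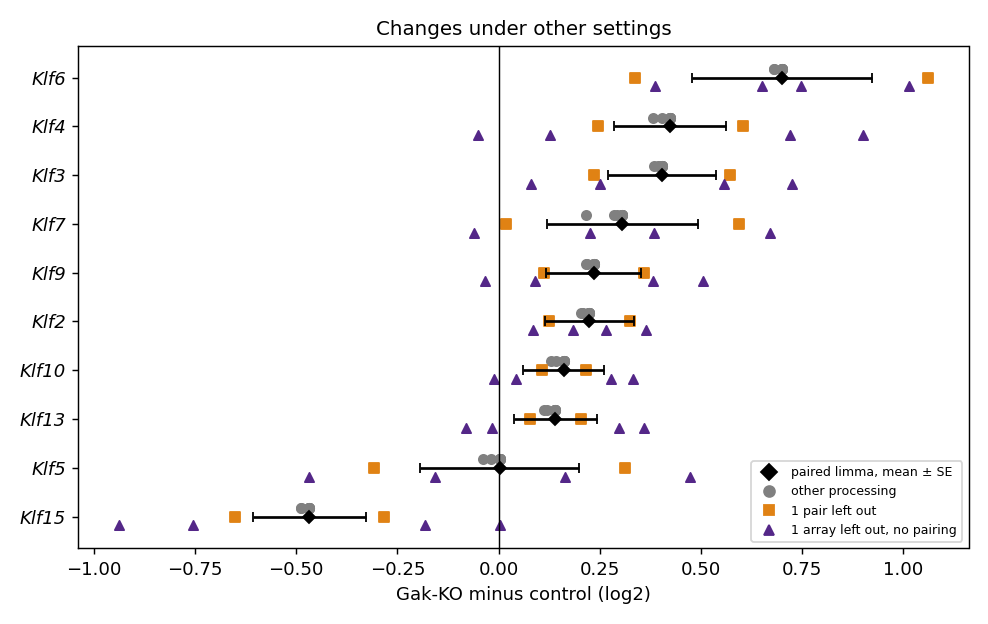
Mean *Gak*-KO minus control difference (horizontal axis, log2) of each KLF gene (rows) in the paired limma fit (black, ± SE), under other processing (gray), with 1 pair left out (orange) and with 1 array left out without pairing (purple). *Klf6* ranged between 0.34 and 1.06, and *Klf15* between -0.94 and 0.0028, the highest value being that without *Gak*-KO 2.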

How the data were processed

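Glomerular RNA was measured on 2 *Gak*-KO and 2 control arrays, each a pool of 3 mice by the series' design text. The authors deposited log2 signals made with RMA, and limma is also named in the submitters' processing notes. Versions are not given in the sources used here. The probe set identifiers belong to a whole-transcript mouse array, whereas the labels and methods name another array type, and the series title speaks of microRNA. One figure legend gives the age as 5 weeks. Raw arrays were not analysed here.

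Of 41345 probe sets, 23521 were annotated with 1 symbol, 1820 with several and 16004 with none. Genes (22180) were represented by their brightest 1-symbol probe set. Differences, SEs and p values came from limma 3.58.1 (R 4.3.3), fitted with pairs as blocks on 1 residual and 2.24 prior degrees of freedom. SEs, intervals and p values are moderated, the variance of a gene being drawn towards that of all genes. Benjamini-Hochberg adjustment was made over all genes, with a threshold of 0.05. The *Z*-ratio (95% limit of a normal distribution; the demand on both pairs follows the study's gene table, not its methods) was computed in its usual form. The scripts were tested on simulated data. Pairing by array number follows the batches of the study's gene table and was checked in the values. Deviations of same-numbered arrays correlated at 0.694, and values were identical for 1421 probe sets in pair 1, 3735 in pair 2 and 0 between arrays of different numbers. Whether arrays of different numbers were normalized together is not known here and was not tested. Any such difference would enter array 2 minus array 1, the overlap of the groups and the unpaired values. Pools are the samples compared. With the pairs as blocks, p values rest on how far the 2 paired differences of a gene disagree, moderated by the variance of all genes. A difference between arrays 1 and 2 that both groups share is not counted in them. The number of arrays, 4, limits the precision.

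The members and lists were chosen with earlier results of these data known. Named in the text are the members, list genes called by the *Z*-ratio and up to 4 more per list with the largest absolute change, and the 3 nearest profiles to *Klf6*. Cell marker lists are described by their calls, directions, medians and sums. Single markers are named in the results where called, where the study's gene table lists them or where the tissue was checked. The tissue was checked with *Wt1*, *Podxl* and *Slc34a1*, chosen after their values were seen. In the closing section, markers are named where the pairs had opposite signs. Protein sequences were not used here. Alternatives were no pairing, quantile normalization, median centring, the mean of a gene's probe sets, a filter at the 30th percentile, *Z* scores over all probe sets, a robust scale, a stricter limit, an intensity trend in limma, and leaving out each pair or array. Figures were drawn with matplotlib 3.10.9.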

Additional observations from a re-analysis of the deposited data

Results flagged for a closer look

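The *Gak*-KO minus control difference had opposite signs in the pairs for *Klf5* and for some of the related genes and markers. The pairs differ in sex label and in batch, which cannot be told apart. Such opposite signs were common, with 39.7% of all genes and 47 of 149 genes measured in the lists. The difference between the pairs was not tested for any of them, and each pair has 1 array per group. Given as pair 2 minus pair 1 on the log2 scale, it was -0.62 for *Klf5*. For genes of the related lists it was 0.50 for *Smad2* and -1.33 for *Cnn1* (calponin of smooth muscle). The podocyte genes *Tcf21* and *Plce1* were higher in *Gak*-KO in pair 2 and lower in pair 1, with 0.80 and 0.54, and the endothelial receptor gene *Tek* likewise, with 0.96. The keratin genes *Krt8* and *Krt18* ran the other way, with -0.60 and -0.61, as did the tubule factor *Hnf4a*, with -0.99. Of the other genes chosen by the naming rule, *Aqp2* had 0.61, *Csf1r* 1.06 and *S100a9* 0.61. Gaps of this size also occurred in list genes outside that rule, named after their values were seen, with 1.65 for *Lyz2*, -1.32 for *Slc22a6*, 1.18 for *Sele*, 0.92 for *Ehd3* and 0.82 for *Ptpro*.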

How the results depend on the processing

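With the limit passed in both pairs, 0 of the 10 KLF genes and 165 genes in all were called. Without the pairing (no replicate block), where a single *Z*-ratio of group means also took the place of the demand on both pairs, 3 and 1199 were called, so the effect of either change alone is not shown. The number of genes called was 41 with *Z* scores over all probe sets, 391 with a robust scale and 59 at a stricter *Z*-ratio limit, with 0 KLF genes called under each of these settings. Leaving out a pair or an array, which replaces the demand on both pairs by 1 *Z*-ratio, gave 1 to 5 KLF genes called, 1108 to 1323 genes called, and 5 to 9 KLF genes with a mean difference above 0, the 5 being without control 1. *Klf5* turned to -0.039 after quantile normalization and -0.017 after median centring. With 1 pair or array left out, *Klf5* ranged between -0.47 and 0.47, *Klf4* between -0.052 and 0.90, *Klf7* between -0.061 and 0.67, *Klf9* between -0.034 and 0.50, *Klf10* between -0.011 and 0.33, *Klf13* between -0.079 and 0.36 and *Klf15* between -0.94 and 0.0028. *Klf2*, *Klf3* and *Klf6* kept their sign in all 15 alternatives. Adjusted limma p values of the KLF genes lay between 0.638 and 1.0 over the alternatives. Single arrays were left out without the pairing, so arrays of different numbers were also compared, and a lone array was assumed to vary like the other group. The cause of these shifts was not tested.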
